A study of Catharus ustulatus with 19 samples.

Results

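In 244 of the 11727 genes measured in the brains of Swainson's thrushes (Catharus ustulatus), the migratory coastal birds were completely separated from the non-migratory coastal birds. The genes were chosen by that separation alone: all 4 migratory coastal values had to lie above, or all below, the 6 non-migratory coastal values. In 140 genes the migratory birds were above and in 104 they were below. The coastal values therefore chose the genes, and the coastal difference between the statuses is given as a description, with no test. The 9 inland birds took no part in the choice, and the same genes were tested in them. That test was not fully independent of the choice, as its spread was estimated from coastal and inland birds together. A fit of inland birds only is given beside it.

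Each bird gave RNA from tissue holding the hypothalamus and optic chiasma, taken after more than a year in captivity on a day length that followed the season. The migratory coastal birds were 3 males and 1 female, all collected in October 2011. The non-migratory coastal birds were 4 males collected in August and 2 females, 1 collected in August and 1 (replicate 6) in October. The inland birds were all males: 5 migratory birds, of which 4 were collected in October and 1 (replicate 1) in August, and 4 non-migratory birds collected in August. In coastal birds, and in inland birds too, status and month thus differed in a single bird. For most of either contrast the part of each cannot be told apart. Migratory coastal birds were sampled 2.52 to 8.57 hours after lights on, and non-migratory coastal birds at 2.5 to 7.55 hours. The hours were 2.87 to 7.65 in migratory and 3.03 to 6.53 in non-migratory inland birds. The August bird of the migratory inland group was the latest sampled inland bird, at 7.65 hours.

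The hypothalamus is the part of the brain that turns day length into seasonal changes of physiology, among them reproductive state, feeding and fattening. Songbirds sense day length partly through light receptors deep in the brain. In captivity, migratory species show restlessness at night in the seasons when they would travel. The optic chiasma, where the optic nerves cross, adds white matter to the tissue block, so the cells of several types were measured together. In such a block, fewer cells of a type and less RNA per cell cannot be told apart. The table names genes only by identifiers of the form ENSFALG, and the sources used here pair none of them with a symbol, function or position. The checks of cell type markers and of seasonal gene lists, which need symbols, were not made, and a few genes are named by identifier.

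Expression levels are the deposited normalized values, read as log2, on which a step of 1 is a doubling. The sequencing depth is unknown, and a level can be compared between birds but not between genes, since gene length is not known. As a description of the deposited values, the median of the inland means was 27.83 log2 for the higher genes and 27.90 for the lower genes. It was 28.04 for all genes. The inland means ran from 24.73 to 32.11 log2 in the higher and from 24.87 to 32.24 in the lower genes, against 22.46 to 35.98 in all genes. The lowest 10% of all genes by level held 26 of the 244 (10.7%).

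Most differences between the coastal groups were small. In the 140 higher genes the migratory mean exceeded the non-migratory mean by 0.08 to 1.13 log2, with a median of 0.27. In the 104 lower genes the difference, migratory minus non-migratory, ran from -2.30 to -0.07 log2, with a median of -0.33. The size of the difference had a median of 0.10 log2 over all genes. Differences of more than 1 log2, a factor of 2, were found in 3 of the higher and 4 of the lower genes, and differences of less than 0.25 log2 in 60 and 37. The values within each group lay close together: the median SD among migratory coastal birds was 0.10 log2 for the higher and 0.12 for the lower genes, against 0.16 for all genes. The choice itself favours such a small spread.

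The space left between the groups was narrower still. The gap between the nearest birds of the 2 groups had a median of 0.03 log2 in the higher genes and 0.05 in the lower genes, and it passed 0.1 log2 in 24 genes of each kind. It was under 0.01 log2 in 25 higher and 9 lower genes. Just inside the rule, the 10 higher genes with the smallest gaps had gaps of 0.00039 to 0.003 log2. Just outside it lay 7 genes whose nearest values were equal, and the 10 nearest genes outside overlapped by at most 0.00081 log2. Among lower genes, the 10 inside had gaps of 0.0011 to 0.01 log2 and the 10 outside overlapped by at most 0.0047 log2, 2 of them with equal values. The higher genes made up 1.19% of all genes and the lower genes 0.887%; as the rule used this contrast, nothing is read from these shares.

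The female among the migratory coastal birds (replicate 4) was the migratory bird nearest the gap in 83 of the 244 genes (34%), 50 of them higher and 33 lower. Of the non-migratory coastal birds, a female stood nearest in 119 genes (48.8%). The October bird, female replicate 6, stood nearest in 37 higher genes and 22 lower genes, and the other female, replicate 5, in 29 and 31. The 4 males did so in 13 to 26 higher and 8 to 21 lower genes each. Replicate 6 lay on the migratory side of the mean of its 5 August group mates in 165 of the 244 genes (67.6%). It was also the latest sampled of its group, at 7.55 hours. On a scale from 0 at the non-migratory to 1 at the migratory coastal mean, its median position was 0.17 in both lists. August replicates 4 and 5 stood at 0.16 and 0.07 in the higher genes and 0.13 and 0.24 in the lower. August replicates 1 to 3 stood at -0.12 to -0.04 and at -0.23 to 0.03. These values chose the genes and are a description. Migratory coastal replicate 2 lay farthest out in the higher genes. Its values stood above the inland mean by a median of 0.31 log2, against 0.22, 0.23 and 0.19 in migratory coastal replicates 1, 3 and 4.

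**Figure D1:**
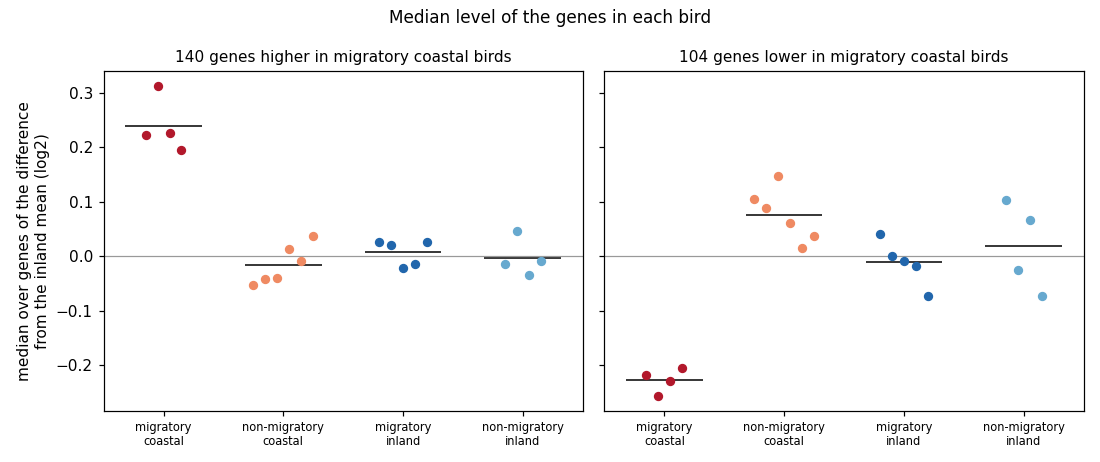
Median over the 140 higher genes (left) and the 104 lower genes (right) of each bird's level minus the mean of the 9 inland birds, in log2; each point is a bird and each bar a group mean. The migratory coastal birds lie at 0.19 to 0.31 on the left and at -0.26 to -0.21 on the right, apart from the other 3 groups; the coastal values chose the genes, the inland values did not.

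The plot of each bird's median level shows where the inland birds stood. In the higher genes the medians were -0.02 to 0.03 log2 in the 5 migratory inland birds and -0.03 to 0.05 in the 4 non-migratory inland birds. In the lower genes they were -0.07 to 0.04 log2 in migratory and -0.07 to 0.10 in non-migratory inland birds. The statuses overlapped in both lists. The non-migratory coastal birds lay at -0.05 to 0.04 log2 in the higher genes, where 3 of the 6 were below every inland bird, and at 0.01 to 0.15 in the lower genes. The inland mean was nearer to the non-migratory than to the migratory coastal mean in 114 of the 140 higher genes (81.4%) and 76 of the 104 lower genes (73.1%). These counts rest on the coastal means that chose the genes and are a description.

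The genes with the widest gap in each direction show the pattern and its limits. ENSFALG00000009613 stood at 25.87, 26.35, 26.53 and 25.88 log2 in migratory coastal birds and between 24.72 and 25.46 (median 25.03) in non-migratory coastal birds. Its coastal means differed by 1.11 log2, or 2.15-fold. Inland, it stood at 25.29, 25.16, 24.88, 25.16 and 24.60 in migratory birds and at 24.65, 26.11, 24.52 and 25.76 in non-migratory birds. The migratory inland birds were thus all below the migratory coastal birds, and a non-migratory inland bird reached their range.

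ENSFALG00000008812 stood at 28.83, 28.39, 28.48 and 28.70 log2 in migratory coastal birds and between 27.06 and 28.16 (median 27.90) in non-migratory coastal birds. In inland birds the order of the means was the opposite, with 28.42, 27.93, 26.45, 27.47 and 27.61 in migratory birds and 29.19, 27.35, 28.50 and 28.20 in non-migratory birds. The inland groups overlapped, and their difference was -0.73 ± 0.35 log2 (SE, limma adjusted p = 0.79). On leaving out each inland bird it ran from -1.05 log2, without non-migratory inland replicate 2, to -0.44, without non-migratory inland replicate 1. It was -0.45 log2 without migratory inland replicate 3.

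Of the lower genes, ENSFALG00000010663 stood at 27.73, 27.86, 27.29 and 27.06 log2 in migratory coastal birds and between 28.23 and 28.95 (median 28.80) in non-migratory coastal birds, a difference of 1.20 log2 in size (2.30-fold). In inland birds it was 28.62, 28.27, 28.92, 27.56 and 27.93 in migratory birds and 28.80, 27.97, 28.51 and 28.18 in non-migratory birds. These groups overlapped almost entirely, with an inland difference of -0.10 ± 0.22 log2 (SE, limma adjusted p = 0.96). Leaving out migratory inland replicate 4 or non-migratory inland replicate 1 turned its sign (0.07 and 0.04 log2).

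ENSFALG00000005632 had the lower mean in migratory birds of both ecotypes. It stood at 25.96, 26.15, 26.03 and 25.68 log2 in migratory coastal birds, against 26.42 to 27.33 (median 26.78) in non-migratory coastal birds. The inland values were 26.56, 25.74, 26.39, 26.40 and 25.68 in migratory birds and 27.20, 26.29, 26.86 and 26.74 in non-migratory birds. The highest migratory inland value was that of replicate 1, collected in August and the latest sampled inland bird. The slope of this gene with the hour in inland birds was 0.14 ± 0.06 log2 per hour (SE, limma adjusted p = 0.72). The parts of month and hour in that value were not tested. The inland groups overlapped through non-migratory replicate 2. The inland difference was -0.62 ± 0.20 log2 (SE, 95% interval -1.03 to -0.20). It did not pass the threshold over all genes (limma adjusted p = 0.62). The gene was also named by its inland p-value, which favours an interval apart from 0.

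**Figure D2:**
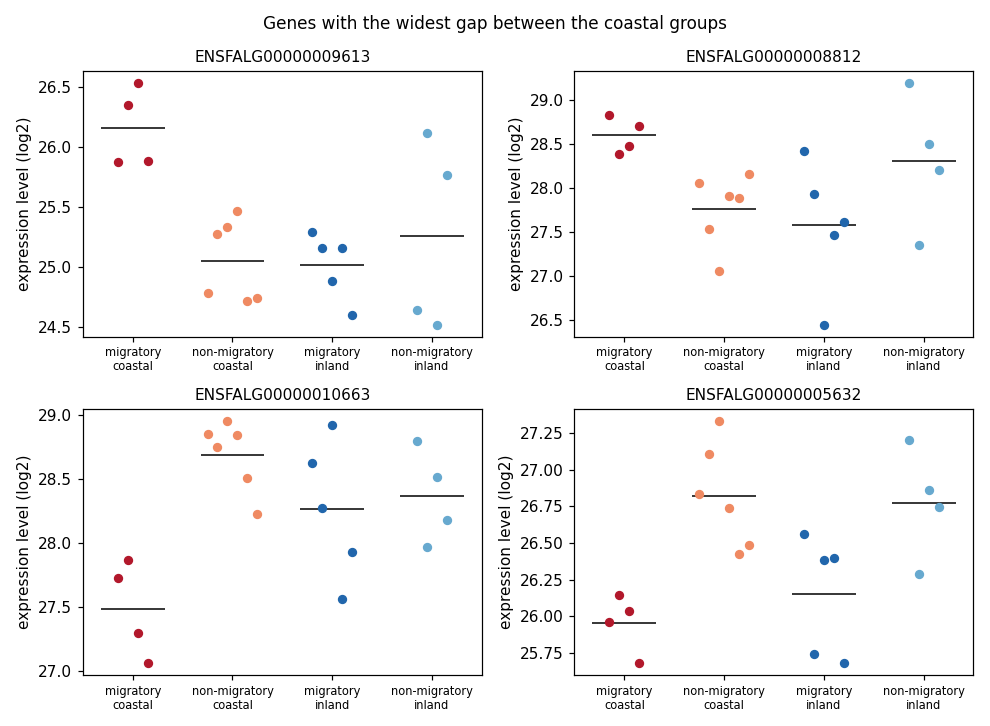
Expression level (log2) in each bird of the 2 higher genes (top) and the 2 lower genes (bottom) with the widest gap between the coastal groups; points are birds, bars are group means, and the vertical axes do not start at 0. The coastal groups are apart by the choice of the genes, while the inland groups overlap in all 4 genes.

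The test in inland birds asked whether the separated genes also differed by status in the other ecotype, whose migratory route is known to differ. No gene of the 244 was called in inland birds by the linear model limma, with p-values adjusted over all 11727 genes by the Benjamini-Hochberg method (smallest adjusted p among them = 0.62), where 1 gene of all 11727 was called (0.00853%). The difference, migratory minus non-migratory, had a median of 0.02 log2 in the 140 higher genes and -0.03 in the 104 lower genes, against 0.00 (0.0031) in all genes. It was above 0 in 75 of the higher genes (53.6%) and 40 of the lower genes (38.5%), against 51.1% of all genes. In all, 139 of the 244 genes (57%) had the same direction in both ecotypes. No share of all genes is given for this pooled count, and nothing is read from it. On leaving out each inland bird, the median difference ran from -0.0043 to 0.0238 log2 in the higher genes. In the lower genes it ran from -0.0516 to 0.0068 log2. The size of the inland difference had a median of 0.09 log2 in both the higher and the lower genes and of 0.09 in all genes. The SD within inland groups had a median of 0.16 log2 in the higher and 0.19 in the lower genes, against 0.17 in all genes.

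At an unadjusted p under 0.05 in limma, 8 of the 140 higher genes (5.71%) were higher in migratory inland birds, where 2.77% of all genes were. In the opposite direction there were 5 (3.57%), against 3.52% of all genes. Of the 104 lower genes, 5 (4.81%) were lower in migratory inland birds, close to the same 3.52%, and none was higher. Over both lists, 13 genes had such a p in the coastal direction and 5 against it. The count against the coastal direction was 8 without migratory inland replicate 1 or 4, 3 without migratory inland replicate 3 and 9 without non-migratory inland replicate 1. In either direction, 9.84% of the 244 genes had such a p without migratory inland replicate 1, against 7.2% of all genes. The shares were 6.15% against 5.12% without migratory inland replicate 3 and 7.79% against 6.65% without replicate 4. Without non-migratory inland replicate 1 they were 11.1% against 10.6%. In all these fits the spread was estimated from coastal and inland birds together, so the coastal values that chose the genes enter these p-values. When only inland birds were fitted, 10 of the 244 genes (4.1%) had such a p, against 5.8% of all genes. Of these, 8 were in the coastal direction and 2 against it. For the splits by direction over both lists, no share of all genes is given, and nothing is read from them.

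Complete separation of the inland statuses was rare in these genes, as it was in all genes. The 5 migratory inland birds lay above the 4 non-migratory birds in 2 of the 140 higher genes (1.43%), against 0.776% of all genes, and below them in 1 (0.714%), against 0.827%. None of the 104 lower genes separated the inland statuses in either direction. In all, 3 of the 244 genes did so (1.23%), against 188 of the 11727 (1.6%).

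The 95% intervals of the inland differences used a spread estimated from coastal and inland birds together. The choice favours a small coastal spread, so their widths are a description and not a measure of inland precision alone. In the lower genes the median SD within inland groups was above that of all genes (0.188 against 0.171 log2). Their median standard error was below that of all genes (0.108 against 0.115 log2). In the higher genes both medians were below those of all genes (0.1565 and 0.0995 log2). The 95% interval reached to either side of the estimate by a median of 0.21 log2 in the higher and 0.23 in the lower genes, against 0.24 in all genes. In 190 of the 244 genes (77.9%) the whole interval lay within 0.5 log2 of 0, against 73.8% of all genes. The lists stood on either side of that share, with 118 of the 140 higher genes (84.3%) and 72 of the 104 lower genes (69.2%). The inland and coastal differences of each gene are plotted against each other; the coastal ones come from the values that chose the genes.

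**Figure D3:**
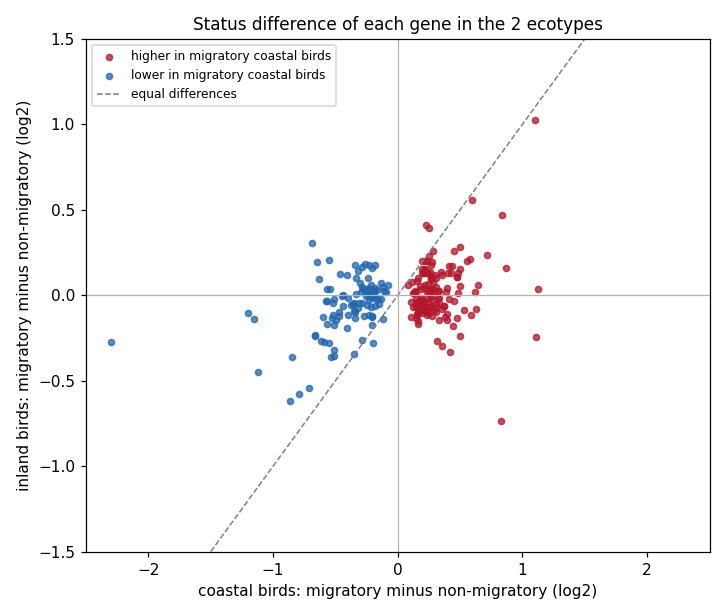
Each point is 1 of the 244 genes, with the difference of group means, migratory minus non-migratory, in coastal birds on the horizontal axis and in inland birds on the vertical axis, both in log2; the dashed line marks equal differences. The empty band at the centre is made by the choice of the genes, and the inland differences lie around 0 in both lists, with medians of 0.02 and -0.03.

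The higher genes with the smallest inland p-values in the same direction were ENSFALG00000012313 and ENSFALG00000001456. ENSFALG00000012313 stood at 32.08, 31.93, 31.77 and 31.81 log2 in migratory coastal birds and between 31.61 and 31.76 (median 31.65) in non-migratory coastal birds. Inland, it stood at 31.62, 31.66, 31.71, 31.56 and 31.62 in migratory birds and at 31.32, 31.45, 31.49 and 31.48 in non-migratory birds. The inland statuses did not overlap. The inland difference was 0.20 ± 0.06 log2 (SE, limma adjusted p = 0.62), close to the coastal difference of 0.22, and both inland means were below the mean of the same status in coastal birds.

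ENSFALG00000001456 stood at 27.54, 27.82, 27.64 and 27.73 log2 in migratory coastal birds and between 27.35 and 27.52 (median 27.48) in non-migratory coastal birds. Its inland values were 27.70, 27.87, 27.53, 28.004 and 28.48 in migratory birds and 27.35, 27.46, 27.66 and 27.54 in non-migratory birds. Those groups overlapped through migratory replicate 3, and the difference was 0.41 ± 0.14 log2 (SE, limma adjusted p = 0.64). It was 0.27 log2 without migratory inland replicate 5 and 0.51 without migratory inland replicate 3, the lowest and highest on leaving out each inland bird.

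Another gene was higher in every migratory bird of both ecotypes. ENSFALG00000015173, named after its values were seen, stood at 26.50, 26.48, 27.02 and 27.09 log2 in migratory coastal birds and between 23.78 and 26.32 (median 26.07) in non-migratory coastal birds. It was at 26.73, 26.68, 27.03, 26.67 and 26.72 in migratory inland birds and at 25.03, 25.92, 25.97 and 26.03 in non-migratory inland birds. The inland difference was 1.03 ± 0.38 log2 (SE, 95% interval 0.22 to 1.84, limma adjusted p = 0.67). The gene was named because its inland statuses did not overlap. That choice favours an interval apart from 0, so the interval is a description. Without non-migratory inland replicate 1 the difference was 0.79 log2.

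Among the lower genes, ENSFALG00000007845 had the smallest inland p-value in the same direction. It stood at 27.68, 27.50, 27.66 and 27.68 log2 in migratory coastal birds and between 27.72 and 27.98 (median 27.82) in non-migratory coastal birds. Inland values were 27.81, 27.47, 27.59, 27.50 and 27.35 in migratory birds and 27.87, 27.78, 27.87 and 27.77 in non-migratory birds. The groups differed by -0.28 ± 0.08 log2 (SE, limma adjusted p = 0.62). The August bird, migratory replicate 1, was the only migratory inland bird within the range of the non-migratory ones. The next smallest p-value in this direction was that of ENSFALG00000005632, described above.

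Some genes had the opposite inland direction. ENSFALG00000002746 stood at 28.74, 28.89, 28.44 and 28.37 log2 in migratory coastal birds and between 28.19 and 28.33 (median 28.26) in non-migratory coastal birds. In inland birds it was at 27.83, 27.69, 28.12, 27.83 and 27.87 in migratory and 28.10, 28.09, 28.22 and 28.26 in non-migratory birds. The coastal difference was thus 0.35 log2 and the inland one -0.30 ± 0.10 (SE, limma adjusted p = 0.64). ENSFALG00000012941 had an inland difference of -0.17 ± 0.07 log2 (SE, limma adjusted p = 0.71), against a coastal difference of 0.16.

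ENSFALG00000002674, named after its values were seen, separated the statuses in both ecotypes but in opposite directions. It stood at 29.21, 29.11, 29.10 and 29.16 log2 in migratory coastal birds and between 28.88 and 29.06 (median 29.00) in non-migratory coastal birds. Its inland values were 29.19, 29.18, 29.11, 29.17 and 29.11 in migratory birds and 29.22, 29.37, 29.22 and 29.26 in non-migratory birds. The migratory birds of both ecotypes were at the same level, with means of 29.15, and the non-migratory birds lay on either side of it. The inland difference was -0.12 ± 0.05 log2 (SE, limma adjusted p = 0.76).

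Of the lower genes, ENSFALG00000001766 and ENSFALG00000007031 had the smallest inland p-values in the opposite direction. ENSFALG00000001766 differed by 0.16 ± 0.08 log2 in inland birds (SE, limma adjusted p = 0.80), against -0.29 in coastal birds. ENSFALG00000007031 differed by 0.18 ± 0.09 log2 (SE, limma adjusted p = 0.80), against -0.23. In neither gene did an inland value of either status reach below the lowest migratory coastal bird. Whether the status difference itself differed between the ecotypes was not tested for any of these genes, since the coastal side of that test chose them.

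**Figure D4:**
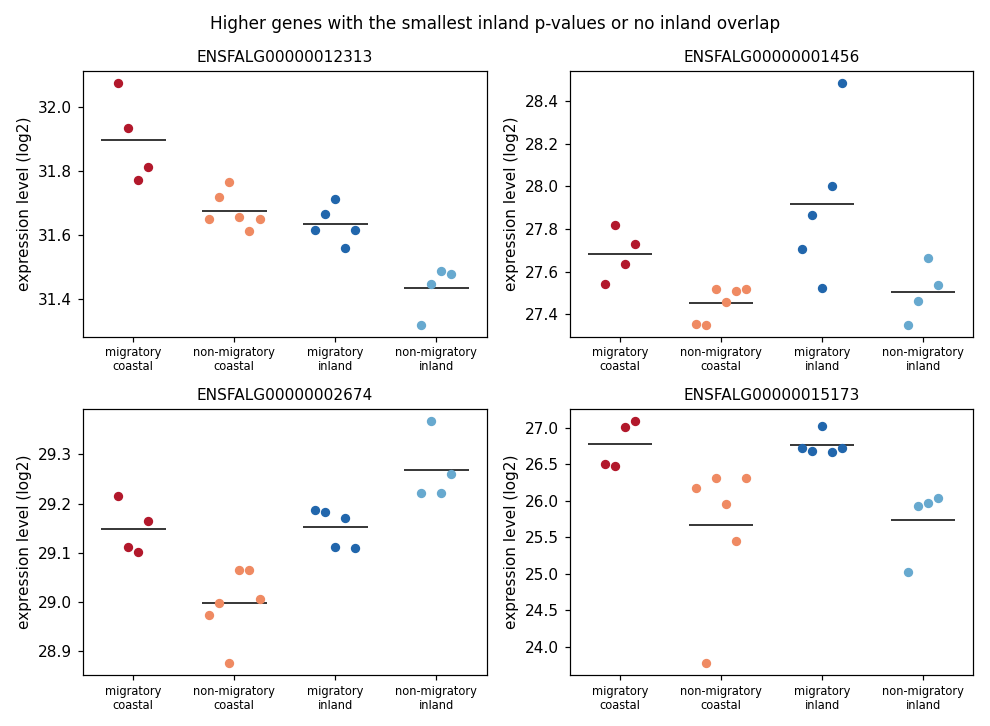
Expression level (log2) in each bird of the 2 higher genes with the smallest inland p-values in the coastal direction (top) and of the 2 other genes whose inland statuses did not overlap (bottom); points are birds, bars are group means, and the vertical axes do not start at 0. In ENSFALG00000002674 the non-migratory inland birds lie above the migratory ones (29.22 to 29.37 against 29.11 to 29.19), the reverse of the coastal order.

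The month of collection was set in place of status in the fit of all 19 birds. This moved the August bird of the migratory inland group to the other inland group. It also moved the October bird of the non-migratory coastal group, replicate 6, and the coastal birds enter the spread behind the p-values. The parts of the inland and the coastal bird in the counts were not tested. The inland comparison by month had 4 October and 5 August birds. At an unadjusted p under 0.05 in limma there were 27 of the 244 genes (11.1%), against 7.59% of all genes. By status there were 18 (7.38%), against 6.29% of all genes. The August bird, migratory inland replicate 1, lay on the migratory side of the mean of its 4 October group mates in 111 of the 244 genes (45.5%).

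The hour of collection, which the choice did not use, was tested as a slope in the 9 inland birds. Of the 244 genes, limma called none (smallest adjusted p among them = 0.55), where 1 gene of all 11727 was called. At an unadjusted p under 0.05 there were 18 (7.38%), against 6.79% of all genes. There were 5 among the higher genes (3.57%) and 13 among the lower genes (12.5%), of which 11 rose and 2 fell with the hour. Over all genes 387 rose and 409 fell at this p. The count over both lists was 10 without migratory inland replicate 2, 11 without non-migratory inland replicate 1 and 8 in all 19 birds. The share of all genes is not given for these other fits, so nothing is read from their counts.

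The limma calls for sex and ecotype are a description, as the coastal values enter both, and nothing is supported with them. No gene of the 244 was called for sex by limma, where 3.27% of all genes were called lower and 0.563% higher in females. At an unadjusted p under 0.05, 6 of the 244 were lower in females and none was higher, against 7.2% and 6.23% of all genes. Females were present in both coastal groups. Of the 140 higher genes, 20 (14.3%) were called lower in inland than in coastal birds, with differences of -0.93 to -0.21 log2, where 3.23% of all genes were called in that direction. Only 2 of the 140 were called higher in inland birds, against 2.71% of all genes. Of the 104 lower genes, 2 were called higher and 1 lower in inland birds.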

How the data were processed

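The authors deposited 1 table of normalized values for 11727 genes and 19 birds. HTSeq, TopHat2 and Trim Galore 0.3.1 are named in the submitters' processing notes, with no roles; no source used here gives the genome build. The deposited values, from 20.4 to 36, were read as log2, since the log base is not stated, and were used with no pseudocount or filter. The columns share nearly the same distribution, so a difference in total RNA is no longer visible, and depth is unknown. No 2 columns were identical. None of the identifiers matched the 19631 RefSeq genes supplied (0 matches), so no sequence is shown.

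Birds were grouped by their labels, and each is a separate animal, numbered in accession order. limma 3.58.1 in R 4.3.3 was fitted to all 19 birds and all genes, with 4 group means, a sex term, the mean-variance trend and robust settings; the hour slope was fitted to inland birds. The procedure was tested on simulated data. Tests were two-sided, and p-values were adjusted by Benjamini-Hochberg over all 11727 genes, with calls at an adjusted p under 0.05. Alternatives were other birds, covariates, scaling, a filter on low values and limma settings.

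Genes were named as the 2 in each direction with the largest coastal gap, and the 2 in each direction with the smallest inland p-value in the same and in the opposite inland direction. The genes and tests were chosen with earlier results of these data known.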

Additional observations from a re-analysis of the deposited data

Results flagged for a closer look

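The 4 groups were each checked on the 13 named genes and on the median deviation of the higher and of the lower genes, 60 checks of a group in all. In 4 of them the highest or lowest bird was set far apart, where a rate of 1 in 20 would give 3. The genes were chosen by these same values, so that rate may not hold for them. Nothing is read from the count. In ENSFALG00000007845, migratory coastal replicate 2 was low at 27.50 log2. In ENSFALG00000015173, migratory inland replicate 3 was high at 27.03 log2, while non-migratory coastal replicate 2 (23.78) and non-migratory inland replicate 1 (25.03) were low.

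In ENSFALG00000002674 every migratory coastal bird was higher and every migratory inland bird lower than the non-migratory birds of the same ecotype, with an inland difference of -0.12 log2. The difference between the ecotypes was not tested.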

How the results depend on the processing

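With fewer birds the rule is easier to pass. Leaving out each coastal bird gave 160 to 437 higher and 121 to 369 lower genes, against 140 and 104. The counts of higher and lower genes were 437 and 369 without migratory coastal replicate 4, 251 and 173 without replicate 1, 219 and 176 without replicate 2 and 256 and 161 without replicate 3. They were 260 and 191 without non-migratory coastal replicate 5, 255 and 188 without replicate 6 (the October bird), and the lower genes were 164 without replicate 4. In coastal males only they were 896 and 723. Rescaling by median of ratios gave 127 and 122, and 222 of the 244 genes stayed; without the lowest 10% of genes by level they were 128 and 90.

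No gene of the 244 was called in inland birds under any of the alternatives run. Over all genes, 10 were called without non-migratory inland replicate 1 and 0 or 1 in each other alternative. With so few calls over all genes, nothing is read from this count. At an unadjusted p under 0.05, leaving out each inland bird gave 9 to 18 genes in the coastal direction and 3 to 9 against it (13 and 5 with all birds). In either direction this was 6.15% to 11.1% of the 244 genes, against 4.81% to 10.6% of all genes. The highest counts, 18 and 9, came without non-migratory inland replicate 1, where the shares were 11.1% and 10.6%. Fitting only inland birds gave 8 and 2 (4.1% of the 244 genes, against 5.8% of all genes), and the month in place of status gave 18 and 9 (11.1%, against 7.59%). No share of all genes by direction is given for these splits, and nothing is read from them. The causes were not tested. The median inland difference lay between -0.0043 and 0.0238 log2 in the higher and between -0.0516 and 0.0068 in the lower genes on leaving out each bird, so its sign was not stable. The hour slope gave 10 to 24 genes leaving out each inland bird and 8 in all 19 birds, against 18. These counts stand without the share of all genes in the same fits, and nothing is read from them. For the 13 named genes, the inland difference had its reported sign in 114 of 117 fits that left out 1 inland bird. Most of these genes were named by their inland p-value or inland separation, which favours a stable sign. Nothing is therefore read from this count. The exceptions were ENSFALG00000010663 without migratory inland replicate 4 (0.07 log2) and non-migratory inland replicate 1 (0.04 log2), and ENSFALG00000009613 without non-migratory inland replicate 2 (0.04 log2). These genes were named by their coastal gap alone. Unknown depth means that counting error could not be separated from differences between birds. No paired analysis was made, because the labels tie no birds into pairs.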
